A study of Rattus norvegicus with 18 samples.

Results

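The genes described are the caveolins Cav1 and Cav2 and the cavins Cavin1, Cavin2 and Cavin3, which encode the coat proteins of caveolae. The rows were taken by gene symbol, and the set holds 5 of the 32883 genes in the deposited table. The set was selected on a measured value, the large LPS to Vehicle difference of Cavin2, so the LPS to Vehicle differences of these 5 genes are descriptions here and carry no test. All 5 were among the 12393 genes whose mean over all libraries reached 1 TPM, an RNA-seq unit of transcript abundance corrected for transcript length and library total.

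The study asked how the cortical collecting duct, the last segment of the renal cortex through which tubular fluid passes, responds to lipopolysaccharide (LPS), the endotoxin of Gram-negative bacteria. LPS rats received LPS into the peritoneal cavity and Vehicle rats received normal saline by the same route, and ducts were dissected by hand 3 h later. All animals were pathogen-free male Sprague-Dawley rats on normal chow with free water, housed singly, and no age, genotype or LPS dose is given in the sources used here. Each group has 3 numbered samples with 3 libraries each, 18 libraries in all, prepared from total RNA by an ultra-low-input cDNA method with PCR amplification. The labels leave unsaid whether each number is an animal of its own, and p-values therefore cover just the variation among the deposited samples, which may be technical.

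Caveolae are flask-shaped pits of the plasma membrane. Caveolins are hairpin proteins inserted in the inner leaflet that oligomerise on their way to the surface, and cavins are soluble proteins that assemble on the caveolin scaffold and complete the coat. Caveolae take up membrane tension by flattening, and they gather receptors and channels. They abound in endothelial cells, adipocytes and muscle, and in rat kidney caveolin-1 protein has been localised to the basolateral membrane of collecting duct principal cells as well as to vessels.

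The libraries carried collecting duct RNA of both main cell classes. Principal cell markers were led by Aqp2, the apical water channel, at 4012 ± 1098 TPM in LPS and 5961 ± 551 TPM in Vehicle, and intercalated cell markers by Rhcg, an ammonia channel, at 1549 ± 221 TPM in LPS and 1927 ± 95.0 TPM in Vehicle (SD, n = 3 samples each, as throughout). Between 11399 and 11841 genes reached 1 TPM in LPS libraries and between 11932 and 12704 in Vehicle libraries. TPM keeps no read number, so the depth of each library is unknown. On the first principal component, with 56.1% of the variance, LPS 1 (16.9) lay between LPS 2 and LPS 3 (70.1 and 68.4) and the Vehicle samples (-47.8 to -56.8). Libraries 1 and 2 of Vehicle 3 stood apart from their sample mates by correlation. Thick limb and distal tubule markers summed to 4964 TPM in Vehicle 1 against 72.4 to 217 TPM in the other 5 samples. Calb1 alone gave 4943 TPM of the Vehicle 1 sum. Umod was at 20.6 TPM in Vehicle 1 and highest in LPS 2 (127 TPM). The median tested gene was 0.38 lower in LPS on the log2(TPM + 1) scale, and 22.2% of the tested genes were called lower and 7.17% higher by limma at an adjusted p under 0.05. No gene was called without sample number 3 (738 higher and 1463 lower at an unadjusted p under 0.05) or with the median in place of the mean of libraries (1019 and 4167 unadjusted), and that holds for each call given here.

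The sequences upstream of the start sites were taken from RefSeq for 4 of the 5 genes, and those of Cavin2 and Cavin1 are printed because cavin-2 is a partner of cavin-1 in the coat and their ratio differed widely between LPS and Vehicle. Each run is the 250 bases before the annotated start, 5′ to 3′ on the gene's own strand, from GRCr8, while the abundances were made on Rnor_6.0. Capitals mark matches to any of 7 motifs searched on both strands. The motifs were the GC box GGGCGG, the CCAAT box CCAAT, the TATA box TATAAA, the AP-1 site TGANTCA, the STAT site TTCNNNGAA, the glucocorticoid receptor motif AGAACA and the E-box CANNTG. No matches shown overlap each other.
Cavin2, chr9:57806025-57806274, minus strand: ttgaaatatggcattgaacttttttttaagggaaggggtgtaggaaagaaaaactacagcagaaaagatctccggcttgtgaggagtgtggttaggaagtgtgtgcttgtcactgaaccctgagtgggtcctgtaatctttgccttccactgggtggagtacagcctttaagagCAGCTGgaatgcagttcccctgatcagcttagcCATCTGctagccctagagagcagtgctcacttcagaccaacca
Cavin1, chr10:86396384-86396633, minus strand: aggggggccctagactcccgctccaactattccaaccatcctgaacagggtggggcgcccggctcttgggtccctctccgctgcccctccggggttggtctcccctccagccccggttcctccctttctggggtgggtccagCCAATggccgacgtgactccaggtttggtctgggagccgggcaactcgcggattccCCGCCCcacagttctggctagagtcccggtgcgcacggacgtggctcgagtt
The Cavin2 window held an E-box at -76 to -71 and another at -43 to -38, counted from the start site, and no other match. E-box letters occur in 65.5% of the 33469 RefSeq windows of this length. The Cavin1 window held a CCAAT box at -108 to -104 and a GC box at -52 to -47, found in 34.0% and 30.5% of windows. G and C made up 47.6% of the Cavin2 window and 67.2% of the Cavin1 window, against a median of 51.2% over all windows. The Cav2 window held a GC box, an AP-1 site (6.34% of windows) and 3 E-boxes. Of the 2 annotated Cav1 start sites, 1 had a GC box, a TATA box (12.9% of windows) and an E-box and the other an E-box alone. No window of these genes held the STAT letters (7.67% of windows) or the glucocorticoid receptor motif (17.5%). Such matches describe letters and are not evidence of binding.

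In Vehicle ducts the caveolins were far more abundant than the cavins. Cav2 was the highest at 245 ± 40.5 TPM and stood at the 94.6 percentile of tested genes, followed by Cav1 at 112 ± 17.0 TPM (87.6 percentile). Cavin2 followed at 26.0 ± 9.13 TPM, Cavin1 at 13.6 ± 3.02 TPM and Cavin3 at 4.19 ± 2.12 TPM. The sample values of Cav2, Cav1 and Cavin2 did not overlap each other. Those of Cavin2 (15.8 to 33.3 TPM) and Cavin1 (11.2 to 17.0 TPM) did overlap across samples, although Cavin2 was the higher of the pair in each Vehicle sample. In LPS ducts the order was Cav2, Cav1, Cavin1, Cavin2, Cavin3, with Cavin2 below Cavin1. Cavin2 and Cavin3 overlapped in LPS, and the lowest Cav2 sample (88.8 TPM) barely cleared the highest Cav1 sample (88.3 TPM).

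**Figure D1:**
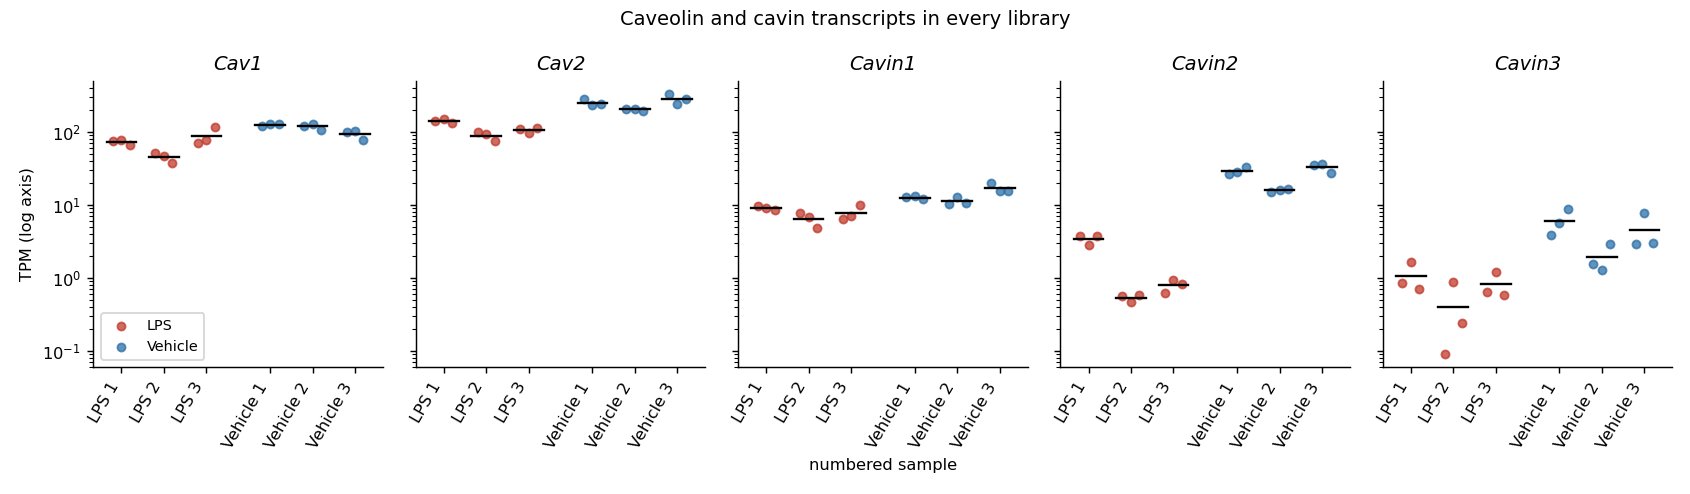
Abundance in TPM (log axis) of Cav1, Cav2, Cavin1, Cavin2 and Cavin3 in each library (points) with the mean of each numbered sample (lines), LPS samples left of Vehicle samples. Cavin2 lies between 0.47 and 3.75 TPM in LPS libraries and between 14.8 and 36.7 TPM in Vehicle libraries.

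Cav1 (ENSRNOG00000056836) encodes caveolin-1, the integral protein without which non-muscle cells form no caveolae. Cav1 measured 72.7, 45.3 and 88.3 TPM in LPS samples 1, 2 and 3, against 125, 119 and 92.8 TPM in Vehicle samples 1, 2 and 3. The sample means did not overlap, but 3 LPS libraries lay at or above the lowest Vehicle library. The log2 change of Cav1 was -0.75 (SE 0.251), and by sample number it was -0.77, -1.38 and -0.10. The difference in number 3 was thus small beside those of the other numbers. LPS 3 and Vehicle 3 were the highest and the lowest sample of their groups. Without number 2 the Cav1 change was -0.43, and without number 3 it was -1.08.

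Cav2 (ENSRNOG00000057713) encodes caveolin-2, which joins caveolin-1 in mixed oligomers and depends on it to leave the Golgi. Cav2 was present at 139, 88.8 and 106 TPM in LPS and 249.5, 202 and 283 TPM in Vehicle. No LPS library (75.7 to 149 TPM) reached a Vehicle library (195 to 329 TPM). The log2 change of Cav2 was -1.14 (SE 0.166), with -0.83, -1.19 and -1.39 by number, and the LPS mean was 45.6% of the Vehicle mean. Its group difference had the smallest SE of the 5 genes.

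Cavin1 (ENSRNOG00000019778) encodes cavin-1, also called PTRF, the core of the cavin complex and required for caveolae in every tissue that has them. Cavin1 was at 9.09, 6.48 and 7.81 TPM in LPS, against 12.6, 11.2 and 17.0 TPM in Vehicle. Libraries of the groups did not overlap (4.88 to 9.93 TPM in LPS, 10.3 to 20.04 TPM in Vehicle). The log2 change was -0.73 (SE 0.213), with -0.43, -0.72 and -1.04 by number. Cavin1 thus lay about as far below Vehicle as Cav1 did. The gap between its groups was narrow, from 9.93 TPM in the highest LPS library to 10.3 TPM in the lowest Vehicle library. The share of all tested genes whose libraries do not overlap was not computed, so nothing is read from such separation in any member.

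Cavin2 (ENSRNOG00000025895) encodes cavin-2, also called SDPR, a phosphatidylserine-binding protein that recruits cavin-1 to caveolae and promotes their curvature. Cavin2 was at 3.44, 0.537 and 0.793 TPM in LPS samples, against 29.0, 15.8 and 33.3 TPM in Vehicle samples. The groups were wide apart, since the highest LPS library held 3.75 TPM and the lowest Vehicle library 14.8 TPM. Within LPS, sample 1 held several times the level of samples 2 and 3. The LPS mean was 6.11% of the Vehicle mean, a 16.4-fold difference, and by number it was 11.9%, 3.40% and 2.39% of the same-numbered Vehicle sample. The log2 change was -3.48 (SE 0.306), which ranked 7 of 12393 tested genes from the lowest. By number it was -2.76, -3.45 and -4.25. Cavin2 stood at the 60.7 percentile of tested genes in Vehicle and at the 10.9 percentile in LPS. In a bulk sample, fewer cells that hold the transcript and less transcript per cell cannot be told apart.

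Cavin3 (ENSRNOG00000017914) encodes cavin-3, a cavin that binds protein kinase C delta. Cavin3 was the least abundant member, at 1.06, 0.403 and 0.813 TPM in LPS and 6.09, 1.90 and 4.58 TPM in Vehicle. Sample means did not overlap, while 1 LPS library lay above the lowest Vehicle library. The log2 change was -1.44 (SE 0.266), with -1.75, -1.05 and -1.52 by number. Libraries of the same Vehicle sample varied by 40.7% to 61.9% (coefficient of variation) for Cavin3, against at most 15.8% for any of the other 4 genes. Its values are the least precise of the set.

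By limma at an adjusted p under 0.05, 4 of the 5 genes were called lower and Cav1 was not, beside 22.2% of all tested genes. The choice of the set used this contrast, so nothing is read from that count or from the counts of members under the other fits. No member was called without number 3, and 2 were called without the Vehicle 3 libraries that stood apart. The 5 changes were negative in every fit made that included the gene. Under median-ratio scaling 3 of the 5 genes were called lower, beside 3.91% of tested genes (6.55% higher), and under quantile normalization 3 were, beside 4.67% (6.53% higher). Without the replicate block 4 were, beside 29.2% (7.36% higher). Relative to the median tested gene, Cav1 was -0.37, Cav2 -0.76, Cavin1 -0.35, Cavin2 -3.10 and Cavin3 -1.06 on the log2 scale. After median-ratio scaling, which moves the median tested gene to -0.04, the changes were -0.37 for Cav1, -0.76 for Cav2, -0.38 for Cavin1, -3.21 for Cavin2 and -1.22 for Cavin3. After quantile normalization, with the median tested gene at -0.12, they were -0.62 for Cav1, -1.11 for Cav2 and -0.36 for Cavin1. Cavin2 was then at -3.18 and Cavin3 at -1.17. Cav1 and Cavin1 therefore lay nearest to the general shift, Cav2 and Cavin3 further below it, and Cavin2 furthest. The distance of Cav1 from that shift depended on the scaling and differed widely between sample numbers.

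**Figure D2:**
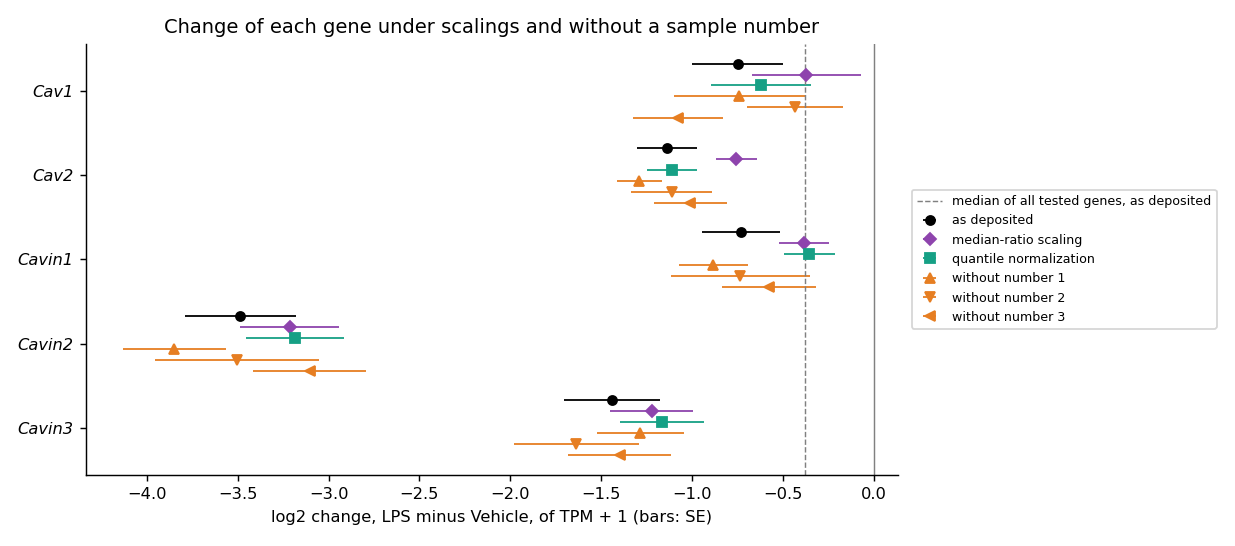
Log2 change (LPS minus Vehicle, TPM + 1, bars are SE) of each gene with the values as deposited, under 2 other scalings and without each sample number. The Cavin2 estimates run from -3.85 to -3.10, below all those of the other genes.

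The makeup of the cavin pool was separate between the groups, and that of the caveolin pool overlapped. Summed over the 3 genes, cavins reached 10.1 ± 3.15 TPM in LPS and 43.8 ± 13.4 TPM in Vehicle. Cavin2 made up 25.4%, 7.53% and 8.49% of that sum in LPS samples, against 60.9%, 54.6% and 60.6% in Vehicle samples. Within a library such shares do not depend on the scaling of that library. The set was picked for the fall of Cavin2, so its share of the cavins and its ratio to Cavin1 restate that difference. The ratio of Cavin2 to Cavin1 was 0.380, 0.0867 and 0.104 in LPS and 2.32, 1.41 and 1.97 in Vehicle, and no LPS library exceeded 0.433 while no Vehicle library was below 1.26.

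The ratio of Cav2 to Cav1 overlapped between groups, at 1.92, 1.97 and 1.26 in LPS and 2.01, 1.71 and 3.10 in Vehicle. Caveolins summed to 180 ± 41.0 TPM in LPS and 357 ± 30.9 TPM in Vehicle. The caveolin to cavin ratio was 15.6, 18.2 and 20.8 in LPS and 7.93, 11.2 and 6.93 in Vehicle, without overlap of samples. Cavin2, for whose fall the set was picked, was the largest part of the Vehicle cavin sum. That separation thus carries the selected difference and is no separate result. The ratio of Cav1 to Cavin1, the pair that defines the coat, was 8.01, 7.06 and 11.2 in LPS and 9.93, 10.6 and 5.498 in Vehicle. That pair showed no separation of the groups.

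**Figure D3:**
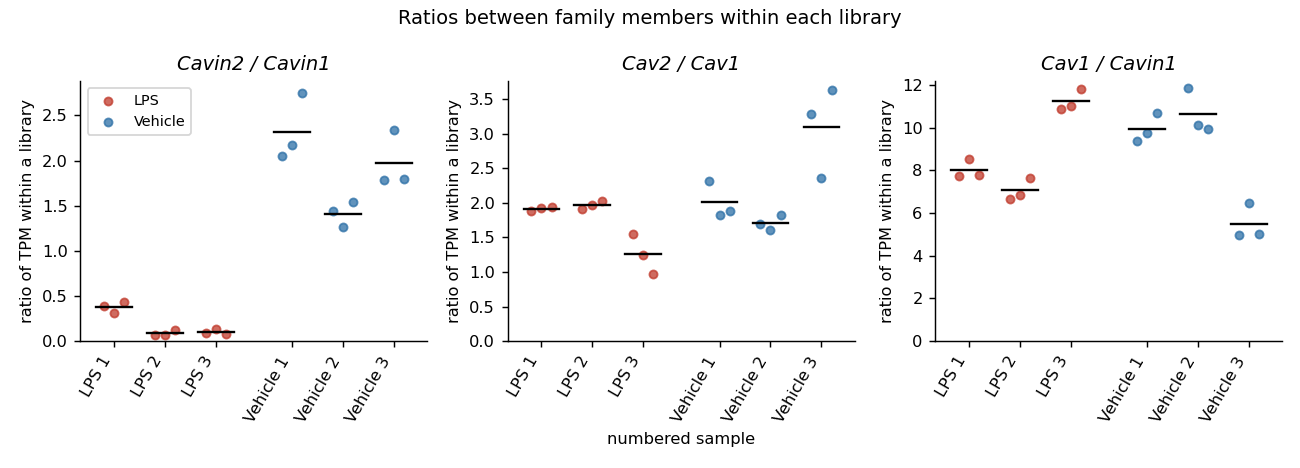
Ratios of transcript abundance within a library (points) for Cavin2 to Cavin1, Cav2 to Cav1 and Cav1 to Cavin1, with the mean of each numbered sample (lines), LPS left of Vehicle. The Cavin2 to Cavin1 ratio lies between 0.0683 and 0.433 in LPS libraries and between 1.26 and 2.75 in Vehicle libraries.

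The 5 genes did not vary together in every library. After group means were removed, the Pearson correlation of log2(TPM + 1) over 18 libraries was 0.83 between Cav2 and Cavin1, 0.80 between Cav2 and Cavin2 and 0.66 between Cavin1 and Cavin2. It was 0.31 between Cav1 and its neighbour Cav2. Within the 9 Vehicle libraries, from 3 samples, Cav1 ran opposite to Cav2 (-0.48) and to Cavin1 (-0.55). Of these samples, Vehicle 3 had the lowest Cav1 (92.8 TPM) and the highest Cav2 (283 TPM) and Cavin1 (17.0 TPM). Libraries 1 and 2 of Vehicle 3 were those that stood apart. Libraries of a sample share its tissue, so these values describe 6 samples rather than 18 independent points.

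Endothelial cells are rich in caveolae, and endothelial RNA was present in every sample. Of 20 endothelial markers, 19 had a row and 10 were tested, with 2 higher, 1 lower and a median log2 change of 0.08. At an unadjusted p under 0.05, 2 were higher and 3 lower. Their summed level was 94.8, 47.3 and 105 TPM in LPS samples and 118, 25.4 and 89.4 TPM in Vehicle samples, led by Plvap, a protein of the diaphragm that spans endothelial caveolae and fenestrae. The LPS sums lay within the range of the Vehicle sums. Plvap was at 43.8, 14.9 and 43.7 TPM in LPS and 54.0, 11.3 and 44.9 TPM in Vehicle (log2 change 0.02, SE 0.198, limma adjusted p = 0.935). Cldn5 was at 0 in every sample, and Robo4, Sox17 and Vwf averaged under 0.1 TPM. Esam, an endothelial adhesion molecule, rose to 20.9 ± 8.52 TPM in LPS, against 4.65 ± 3.05 TPM in Vehicle (log2 change 2.03, limma adjusted p = 0.00435). Emcn, the next most abundant, was at 8.84, 1.48 and 6.10 TPM in LPS and 16.9, 2.24 and 10.45 TPM in Vehicle (-0.60, limma adjusted p = 0.0728). Flt1, a receptor of vascular endothelial growth factor, was also called higher (1.20, adjusted p = 0.0218), a call lost without number 2. With a Vehicle mean of 0.543 TPM, Flt1 passed the filter on low values through its LPS level. Egfl7, the gene called lower (-1.03, adjusted p = 0.0323), lost its call under either other scaling and without any 1 of the sample numbers.

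Across the 9 Vehicle libraries the Pearson correlation with the endothelial sum was 0.85 for Cavin2 and 0.89 for Cavin3. It was 0.45 for Cav2, 0.36 for Cavin1 and -0.12 for Cav1. The 9 libraries of a group come from 3 samples, so these values do not describe 9 independent points. Vehicle 2 had the lowest endothelial sum and also the lowest Cavin2 and Cavin3 among Vehicle samples. Across the 9 LPS libraries the order was another, with 0.88 for Cav1, 0.85 for Cavin1, 0.64 for Cav2, 0.52 for Cavin3 and 0.45 for Cavin2. LPS 3 library 3 had the highest LPS endothelial sum (187 TPM) and also the highest Cav1 (117 TPM), against 70.6 and 77.4 TPM in its sample mates. Esam, which was higher in LPS, is part of these sums. The part of endothelial RNA in the Cavin2 values was not tested.

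**Figure D4:**
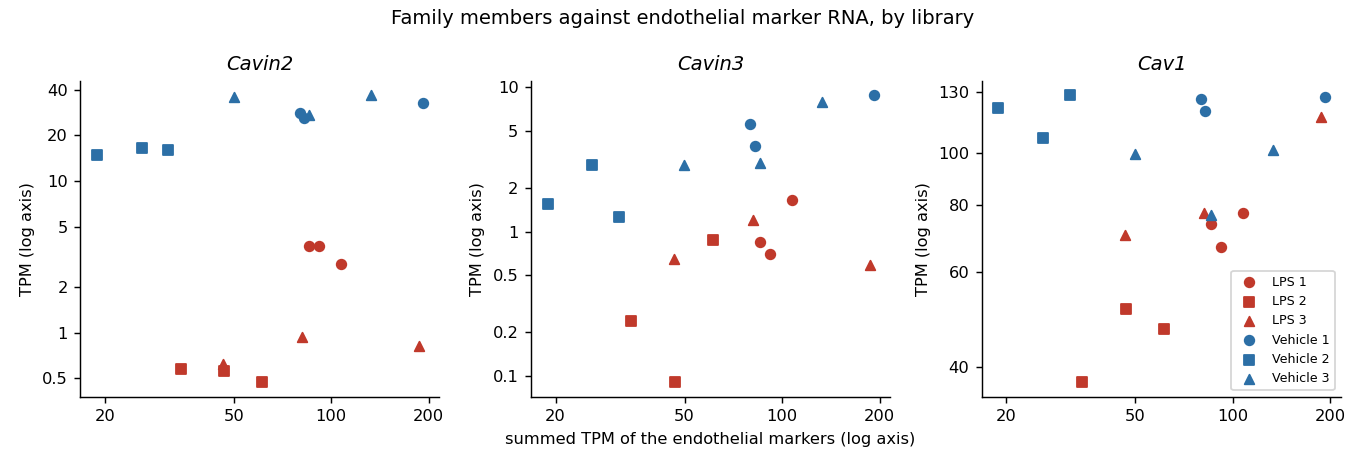
Abundance of Cavin2, Cavin3 and Cav1 (TPM, log axis) against the summed TPM of the endothelial markers (log axis) in each of 18 libraries, LPS red and Vehicle blue, with a symbol for each sample number. Endothelial sums run from 34.3 to 187 TPM in LPS libraries and from 18.9 to 192 TPM in Vehicle libraries, and Cavin2 reaches at most 3.75 TPM in LPS and at least 14.8 TPM in Vehicle.

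Markers of fibroblasts and of mural cells, which also form caveolae, were low. Fibroblast markers summed to 6.03, 6.62 and 2.36 TPM in LPS and 11.2, 5.59 and 8.18 TPM in Vehicle, and Col1a1, Lum, Pdgfra and Pdgfrb averaged under 0.1 TPM. Mural and smooth muscle markers summed to 1.73, 4.46 and 1.49 TPM in LPS and 3.41, 2.86 and 5.33 TPM in Vehicle. Of these, 1 of 8 was tested, Notch3, a receptor of pericytes, and it fell to 0.480 TPM in LPS against 2.18 TPM in Vehicle (limma adjusted p = 0.0308). Notch3 passed the filter on low values through its Vehicle level. The call was lost under either other scaling, without number 2 and without the Vehicle 3 libraries that stood apart. The other mural markers averaged under 1 TPM and did not share a direction. Tagln was at 0.761 TPM in LPS and 0.678 TPM in Vehicle, and Rgs5 at 0.531 TPM in LPS and 0.489 TPM in Vehicle. Acta2 and Des also averaged higher in LPS, and Myh11, Cspg4 and Cnn1 lower. Principal cell markers summed to 13003, 9410 and 9849 TPM in LPS and 16900, 16622 and 18074 TPM in Vehicle. Of 9, limma called 6 lower (22.2% of all tested genes were), with a median log2 change of -0.76. Under quantile normalization 5 were lower (median -0.79, beside 4.67% of tested genes), and 5 were without number 1 or without number 2. Under median-ratio scaling 1 was (median -0.38, beside 3.91%), and 1 was without the Vehicle 3 libraries that stood apart. Of 9 intercalated cell markers 2 were called lower, the same share as among all tested genes, and 0 were under either other scaling, without number 2 or without those libraries.

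Macrophage markers were mostly above Vehicle. They summed to 351, 214 and 161 TPM in LPS and 216, 106 and 153 TPM in Vehicle. Of 8 tested (10 listed), limma called 3 higher and 1 lower, against 7.17% and 22.2% of all tested genes, with a median log2 change of 0.92, or 1.28 under median-ratio scaling. None was called without number 2 or without the Vehicle 3 libraries that stood apart. The part of any of these cell types in the values of the 5 genes was not tested.

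Genes that act on the caveolar coat were mostly below Vehicle, about as the rest of the transcriptome was. Of 15 accessory genes 11 were tested, none was called higher (0 also at an unadjusted p under 0.05), and 3 (27.3%, against 22.2% of all tested genes) were called lower by limma, with a median log2 change of -0.57, against -0.38 for all tested genes. Pacsin3, an F-BAR protein that bends membranes, fell to 16.3, 9.23 and 7.24 TPM in LPS, against 23.9, 22.1 and 31.1 TPM in Vehicle (log2 change -1.20, SE 0.291, adjusted p = 0.0282). Src, the kinase that phosphorylates caveolin-1, fell to 16.7, 8.31 and 8.05 TPM in LPS, against 20.1, 24.9 and 23.6 TPM in Vehicle (-1.06, SE 0.280, adjusted p = 0.0350). Ehd2, the ATPase that rings the caveolar neck, fell to 2.40, 3.96 and 1.59 TPM in LPS, against 9.40, 4.97 and 15.8 TPM in Vehicle (-1.51, SE 0.437, adjusted p = 0.0420). In each of these genes the LPS and Vehicle samples did not overlap. They were named for their small adjusted p, so that adds no support, and the share of all tested genes without overlap was not computed.

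Pacsin2, the F-BAR protein of caveolar necks and the most abundant accessory gene, was at 215 ± 43.0 TPM in LPS and 258 ± 37.5 TPM in Vehicle (-0.27, adjusted p = 0.262). Its sign turned to 0.11 under median-ratio scaling. The muscle forms Cav3 and Cavin4 averaged 0.118 and 0.0233 TPM in LPS and 0.0333 and 0.0533 TPM in Vehicle. None of the 3 accessory calls was kept under median-ratio scaling, under quantile normalization or without the Vehicle 3 libraries that stood apart. Without number 2 the list had 1 gene called lower, and without the replicate block it had 5.

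Receptors, channels and signalling proteins reported to bind caveolin or sit in caveolae gave 1 higher and 5 lower (35.7%) of 14 tested (18 listed), against 7.17% higher and 22.2% lower among all tested genes. Their median log2 change was -0.52, against -0.38 for all tested genes. Trpv4, an osmotically and mechanically gated calcium channel, fell to 81.5, 37.4 and 38.9 TPM in LPS, against 127, 120 and 158 TPM in Vehicle (-1.43, SE 0.266, limma adjusted p = 0.0151). Ptch1, the Hedgehog receptor, fell to 1.24 ± 0.537 TPM in LPS, against 4.55 ± 0.245 TPM in Vehicle (-1.33, adjusted p = 0.0168). Tgfbr1, the type I TGF-beta receptor, fell to 5.31 ± 0.542 TPM in LPS, against 12.3 ± 3.05 TPM in Vehicle (-1.05, adjusted p = 0.0220). Trpv4 was by far the most abundant of these receptors and channels.

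Adcy6, an adenylyl cyclase that acts below the vasopressin receptor, fell to 3.58 ± 1.60 TPM in LPS, against 7.49 ± 0.859 TPM in Vehicle (-0.94, adjusted p = 0.0372). Trpc1, a cation channel, was the remaining gene called lower (-1.03, adjusted p = 0.0419). Egfr, the epidermal growth factor receptor, was the single gene called higher, at 9.72, 26.6 and 29.6 TPM in LPS and 8.62, 9.37 and 12.7 TPM in Vehicle (0.90, adjusted p = 0.0480). LPS 1 lay within the Vehicle range of Egfr, and its call was lost without the replicate block (adjusted p = 0.103). Gnai2, a G protein subunit, was the most abundant partner at 133 ± 15.7 TPM in LPS and 117 ± 5.51 TPM in Vehicle (0.18, adjusted p = 0.372). Under median-ratio scaling Ptch1 alone kept a call (adjusted p = 0.0466, with Trpv4 at 0.0531), and under quantile normalization Trpv4 alone (adjusted p = 0.0441, with Ptch1 at 0.0527). No partner was called without number 2, without number 3 or without the Vehicle 3 libraries that stood apart.

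The other coats and scaffolds served as a comparison of the same kind. Of 16 tested clathrin coat genes (18 listed), 0 were called higher (0 also unadjusted) and 3 lower (18.8%), against 7.17% higher and 22.2% lower among all tested genes, and the median log2 change was -0.38 in both. Fcho2, which nucleates clathrin pits, fell to 6.58 ± 1.05 TPM in LPS, against 14.4 ± 3.86 TPM in Vehicle (-0.996, adjusted p = 0.0266). Ap2a2, an adaptor subunit, changed by -0.79 (adjusted p = 0.0331) and Epn2, an epsin, by -0.86 (adjusted p = 0.0349). The adaptor subunit Ap2m1 was the most abundant clathrin coat gene at 453 ± 60.4 TPM in LPS and 557 ± 28.4 TPM in Vehicle (-0.31, adjusted p = 0.115). All 3 clathrin calls were lost under either other scaling and without number 2 or number 3 or the Vehicle 3 libraries that stood apart.

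Of 9 tested genes of other membrane scaffolds (10 listed), the flotillin, prohibitin, stomatin and erlin families, limma called 0 higher and 0 lower, with 1 higher and 2 lower at an unadjusted p under 0.05. Their median log2 change was -0.21. Phb2, a prohibitin and the most abundant, was at 241 ± 21.3 TPM in LPS and 277 ± 15.4 TPM in Vehicle (-0.20, adjusted p = 0.275). Pairs of lists were not tested against each other, and the lists were not tested against the caveolar genes.

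**Figure D5:**
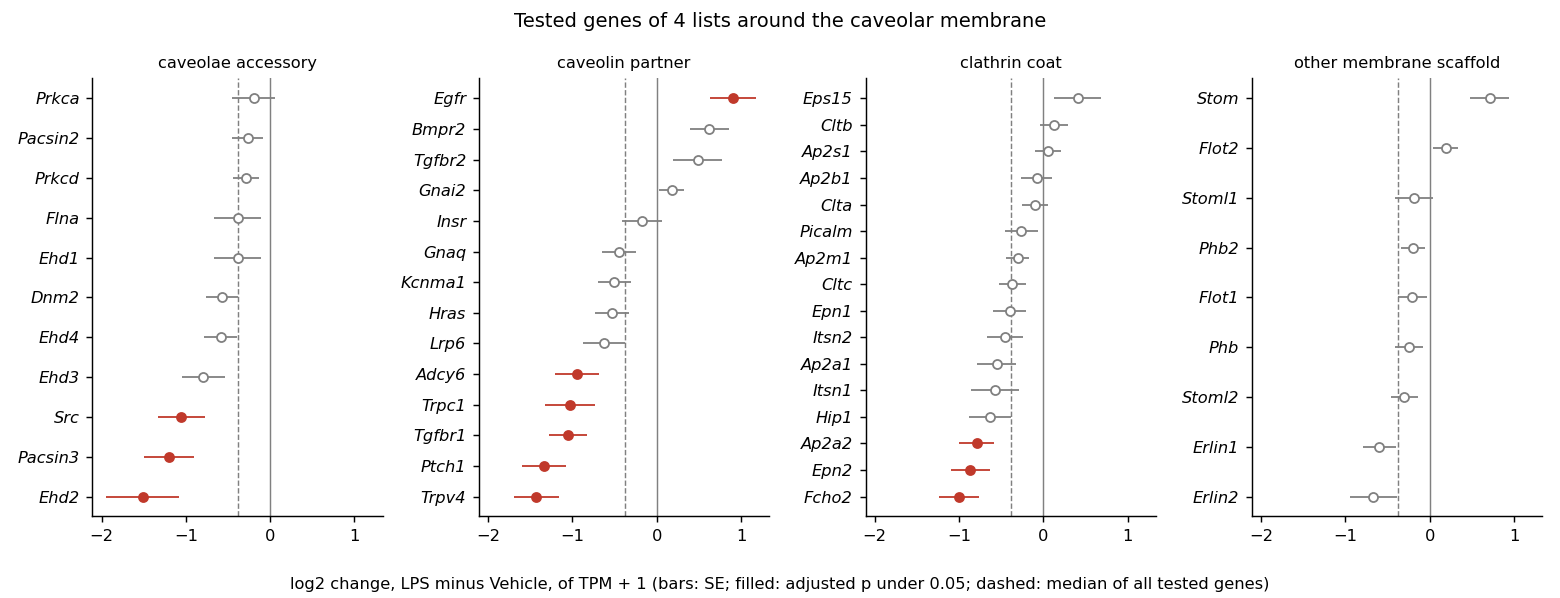
Log2 change (LPS minus Vehicle, TPM + 1) of each tested gene of the accessory, partner, clathrin and other scaffold lists, with SE bars, filled where the limma adjusted p was under 0.05. The dashed line is the median tested gene at -0.38, and the lowest gene drawn is Ehd2 at -1.51.

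The genes next to the caveolar loci did not all move with them. In the RefSeq gene order of chromosome 4, Tes, Cav2, Cav1 and Met follow each other. Tes, a focal adhesion protein, rose to 47.5, 55.9 and 51.7 TPM in LPS, against 35.3, 33.0 and 32.7 TPM in Vehicle (0.60, SE 0.173, limma adjusted p = 0.0416). Met, the hepatocyte growth factor receptor, was at 18.1 ± 2.57 TPM in LPS and 20.8 ± 5.80 TPM in Vehicle (-0.19, adjusted p = 0.475). Tes was thus higher and both caveolins lower in all 3 LPS samples. The Tes call was lost without number 2 (adjusted p = 0.260) and without the Vehicle 3 libraries that stood apart (0.0607), and the sign of Met turned under either other scaling.

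Cavin1 lies on chromosome 10 between Stat3 and Atp6v0a1. Stat3, the transcription factor that answers interleukin-6, rose to 85.4, 258 and 216 TPM in LPS, against 49.0, 71.2 and 94.9 TPM in Vehicle (1.28, adjusted p = 0.0122), although LPS 1 lay below Vehicle 3. The Stat3 call was lost without the replicate block (adjusted p = 0.0532), without number 2 (0.0536) and without the Vehicle 3 libraries that stood apart (0.0554). Atp6v0a1, a proton pump subunit, had a change of -0.40 (adjusted p = 0.177), with the other sign under quantile normalization. Beside Cavin3 on chromosome 1, Smpd1, the acid sphingomyelinase, was at 201 ± 36.7 TPM in LPS and 236 ± 29.8 TPM in Vehicle (-0.24, adjusted p = 0.342, of the other sign under median-ratio scaling), and Cckbr averaged under 0.1 TPM in both groups. Beside Cavin2 on chromosome 9, Tmeff2 also averaged under 0.1 TPM in both groups. No neighbour of Cavin2 was therefore tested.

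The genes that varied most like Cavin2 among libraries, after group means were removed, were Irs2 (Pearson correlation 0.953), Ccn2 (0.945), Vps37b (0.940), Prpsap2 (0.938) and Aqp2 (0.936). These values are descriptions over 18 libraries from 6 samples, and libraries of a sample share its effects. Within LPS, sample 1 lay apart in Cavin2 (3.44 against 0.537 and 0.793 TPM) and in Aqp2 (5262 against 3204 and 3569 TPM). How much of the likeness rests on LPS 1 was not tested. Ccn2, a secreted matricellular protein, fell to 3.81 TPM in LPS against 17.8 TPM in Vehicle (log2 change -2.26, limma adjusted p = 0.0249). Vps37b, an ESCRT-I subunit, fell to 16.5 TPM in LPS against 43.4 TPM in Vehicle (-1.39, adjusted p = 0.00813). The Ccn2 call was lost under either other scaling, without number 2 and without the Vehicle 3 libraries that stood apart, and the Vps37b call without number 2 (adjusted p = 0.0555). Irs2, an insulin receptor substrate, was at 4.57 TPM in LPS and 6.48 TPM in Vehicle (-0.45, adjusted p = 0.227), so likeness within groups did not go with a called difference in that gene.

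The genes most like Cav1 were Sat2 (0.912), Cxcl17 (0.829), AC136588.3 (0.818), Sele (0.802) and Msmo1 (0.800). Sele, the endothelial adhesion molecule E-selectin, averaged 4.71 TPM in LPS and 0.0456 TPM in Vehicle, and Cxcl17, a mucosal chemokine, 4.30 TPM in LPS and 0.0156 TPM in Vehicle. Both passed the filter on low values through LPS libraries alone, and being near 0 in Vehicle they owe their likeness to Cav1 to the LPS libraries. With group means kept in, the correlation of Cav1 was -0.28 with Sele and -0.55 with Cxcl17. No gene was among the 5 most alike for both Cav1 and Cavin2.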

How the data were processed

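Polyadenylated RNA of microdissected ducts was profiled in 18 libraries. The authors deposited 1 table of TPM, and STAR 2.7.9a, RSEM 1.3.3 and the build Rnor_6.0 are named per the submitters' processing notes. Neither annotation nor filters are given in the sources used here. RSEM divides reads among similar transcripts by estimate. TPM scales every library to the same total of 1e+06 and keeps no depth, so no counting interval is given. Columns beginning with N were read as normal saline and those with L as LPS, and 0 columns belonged to other samples.

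Libraries were averaged within each numbered sample as log2(TPM + 1), with a pseudocount of 1. A mean of 1 TPM over all libraries was required for testing, which left 12393 genes. A gene low in Vehicle passes only if it is high in LPS, and the reverse. limma 3.58.1 in R 4.3.3 compared LPS with Vehicle, with a variance trend, two-sided moderated tests, Benjamini-Hochberg adjustment over all tested genes and a call at an adjusted p under 0.05. The sample number was a block because the series' design text calls the groups paired. Deviations of same-numbered samples correlated at 0.0622, -0.0175 and 0.0686, so the pairing rests on that text alone. The fit was tested on simulated data with known changes. Those data had independent samples with the Vehicle spread, changes of random sign, no pairing and no general shift. The simulation therefore does not give the rate of false calls in these data. Fold changes on this scale understate those of low genes, and ± is the SD of sample means of TPM.

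Members and gene lists were chosen with earlier results of these data known. Named are the 5 members, up to 4 called genes with the smallest adjusted p and the most abundant gene of each list, the most abundant markers, the chromosomal neighbours and the 5 genes most like Cavin2 and Cav1. Trpc1, Egfr, Flt1, Egfl7 and the markers near 0 were named after their values were seen. Upstream sequences are RefSeq GRCr8, and gene order came from the RefSeq table of that build. Alternatives changed the block, the summary of libraries, the pseudocount, the filter, the scaling, the variance trend and the samples used.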

Additional observations from a re-analysis of the deposited data

How the results depend on the processing

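The 5 member changes kept their sign in all alternatives run. Fits that changed just the block, the filter, the variance trend or the use of single libraries left the change itself as it was, by construction. The yardstick was the SD of a gene's changes by sample number, which is wide for Cav1 (0.645). Its -0.37 under median-ratio scaling thus counted as within the spread. Of 69 member values, such unmoved ones included, 62 moved by less than this spread between samples and 7 by more. These were Cav2 at -0.76 and Cavin1 at -0.38 under median-ratio scaling, Cavin1 at -0.36 under quantile normalization, Cavin2 at -4.30 and -2.21 and Cavin3 at -2.31 and -0.63 with pseudocounts of 0.1 and 5. Leaving out a sample number gave -1.08 to -0.43 for Cav1, -1.29 to -1.01 for Cav2, -0.88 to -0.58 for Cavin1, -3.85 to -3.10 for Cavin2 and -1.64 to -1.29 for Cavin3. Counts of calls, which those fits can move, were less stable. Without the replicate block, 912 genes were called higher and 3624 lower, against 889 and 2757 with it, the accessory list had 5 lower, the other scaffold list 1 lower and the partner list 0 higher. With all 18 libraries, the block and an estimated correlation, 5295 genes were lower, and the lists had 5 lower (accessory), 1 higher and 3 lower (other scaffold), 7 lower (clathrin) and 2 higher (partner). With the median of libraries 0 genes were called either way (1019 higher and 4167 lower unadjusted), so 0 accessory, clathrin and partner genes were. With no filter, 18 were higher and 2 lower, and 0 in those lists. Median-ratio scaling gave 484 lower and quantile normalization 579, and under either 0 accessory, 0 clathrin and 1 partner genes were lower and 0 partner genes higher. Partner calls were 0 higher with a pseudocount of 5 or no variance trend, and 2 lower with a filter at 5 TPM. Without the 2 Vehicle 3 libraries that stood apart, chosen after seeing the data, 384 genes were higher and 282 lower, and 0 in the accessory, clathrin and partner lists. Leaving out a sample number gave 0 to 1004 higher and 0 to 3595 lower genes, both 0 without number 3 (738 and 1463 unadjusted). It gave 0 to 3 lower accessory, 0 to 1 higher other scaffold, 0 to 4 lower clathrin, 0 to 3 higher partner and 0 to 5 lower partner genes. There were 3 sign changes among named list genes, all under median-ratio scaling: Pacsin2 at 0.11, Phb2 at 0.18 and Ap2m1 at 0.078. Over 14 such genes and 195 values, 117 kept direction and call, 73 lost the call and 2 gained it. The causes were not tested. Depth is unknown, so values near 0, such as Cavin3 in LPS, have no estimate of counting error.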

Other observations

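Among markers of adipocytes, another cell type rich in caveolae, Adipoq, which encodes the hormone adiponectin, was abundant while the rest were not. Adipoq was at 333, 274 and 447 TPM in LPS samples and 359, 292 and 335 TPM in Vehicle samples. The log2 change was 0.07 (SE 0.160, limma adjusted p = 0.734), a difference within the spread between samples. Plin1, the coat protein of fat droplets, averaged 0.00556 TPM in LPS and 0.0133 TPM in Vehicle, and Lep, which encodes leptin, averaged 0.0933 TPM in LPS and 0.242 TPM in Vehicle. Which cells held Adipoq was not tested.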
